A study of Homo sapiens with 8 samples.

Results

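The metallothionein genes MT2A, MT1E, MT1X, MT1F and MT1G, and MTF1, the gene of the transcription factor that controls them, were examined in single cells of MDA-MB-231, a triple-negative human breast cancer line. They were taken by gene symbol from the deposited tables and make up 6 of the 15041 genes listed there. The set was chosen by gene symbol with earlier results of these data known. Which measured values led to it is not stated, and its rule sets no threshold. Counts of members past a test therefore describe this set and are not independent evidence about it. Of the 6 genes, 5 were listed in every table and 5 passed the filter on low counts; MT1G did neither.

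The study compared wild-type (WT) cells with ATM knockdown cells, each untreated or 4 hours after 5 Gy of ionizing radiation. ATM is the kinase that signals DNA double-strand breaks. Each of the 4 groups had 2 libraries, and all 8 came from the same line, kept in the same serum-containing medium with antibiotics. The labels do not say how ATM was knocked down, whether the knockdown line was a single clone, or whether the 2 libraries of a group were separate cultures, so p-values measure the spread between libraries, which may be technical. The titles of the WT and of the knockdown libraries end differently, and the meaning of these endings is not given, so genotype and whatever they mark cannot be told apart.

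Metallothioneins are small, cysteine-rich proteins that bind zinc and copper and buffer the free level of these metals in the cell. Zinc, cadmium and other metals induce their genes through MTF1, a zinc finger factor that senses zinc and binds short metal response elements in their promoters. Glucocorticoids and oxidative stress also raise metallothionein transcription, and the proteins can scavenge radicals through their cysteines.

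The promoter letters are shown because MTF1 acts through them, and the members below are compared with MTF1 itself. RefSeq promoter windows (build GRCh38.p14) matched 3 of the 6 members, MT2A, MT1X and MTF1. The 250 bases before each RefSeq start were searched on both strands for the metal response element core, written TGCACNC or TGCGCNC. The MT2A window, chr16:56608334-56608583 on the forward strand, held 7 matches, 5 on the gene's strand and 2 on the other. Its matches began 8 to 246 bases before the start. The MT1X window, chr16:56682220-56682469 on the forward strand, held 4 matches, 53 to 150 bases before the start. The MTF1 window held 0 matches. Of the 35116 promoter windows of this length, 24.8% held at least 1 match, 0.0313% held 7 or more and 0.370% held 4 or more. A match is a string of letters, not a measured binding site. Below are the 5 TGCACNC matches of MT2A with up to 10 bases on each side, and the 204 bases of MT1X that precede its first annotated exon. All are written 5′ to 3′ on the gene's strand, and capitals mark the matches.
MT2A match 1: ccgcTGCACCCagccccttcc
MT2A match 2: cccgcggcccGTGTGCAgagccgggtg
MT2A match 3: agcgcggggcGTGTGCAggcagcgccc
MT2A match 4: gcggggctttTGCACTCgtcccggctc
MT2A match 5: cttgccgcgcTGCACTCc
MT1X window: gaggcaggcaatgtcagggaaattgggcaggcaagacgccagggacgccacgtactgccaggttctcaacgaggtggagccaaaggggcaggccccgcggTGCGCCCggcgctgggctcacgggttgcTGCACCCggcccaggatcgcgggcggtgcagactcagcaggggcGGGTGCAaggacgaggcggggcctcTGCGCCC

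The genes of the 5 metallothioneins lie within 75998 bases of chromosome 16 (GRCh38, GENCODE 29). MT2A occupies chr16:56608199-56609497, MT1E chr16:56625475-56627112, MT1F chr16:56657694-56660698 and MT1X chr16:56682424-56684196, all on the forward strand, and MT1G chr16:56666731-56668065 on the reverse strand. MTF1 lies apart, at chr1:37809567-37859620 on the reverse strand. In the last 300 bases of the transcripts used, 14.3% of the 50-base words of MT2A also occurred in another gene, among them MT1G, MT1X and metallothionein pseudogenes. The same share was 13.9% for MT1X, 9.16% for MT1F, 8.76% for MT1G and 1.99% for MT1E, and no 100-base word was shared. How reads that fit several of these genes were counted is not given in the sources used here, so the split between members is uncertain to that extent.

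The tables held 378 cells, of which 363 were kept, 41 to 48 per library, and all 15 dropped cells were knockdown cells. Libraries held 9321268 to 24256471 counts, the fewest in irradiated WT library 1, and levels below are CPM, the counts of a library's summed cells scaled to a total of 1000000. ATM itself was at 57.9 and 31.1 CPM in untreated WT, 28.0 and 33.2 in irradiated WT, 13.8 and 33.0 in untreated knockdown and 13.02 and 14.0 in irradiated knockdown libraries. The untreated groups overlapped, and ATM did not pass the test in either knockdown contrast (adjusted p = 0.157 untreated and 0.109 irradiated, edgeR quasi-likelihood test with Benjamini-Hochberg adjustment). At equal depth, ATM was counted in 52.2% to 67.4% of the cells of the WT libraries and 21.2% to 37.5% of those of the knockdown libraries. All 8 markers of the line were in the tables, and 7 were counted in every library, among them VIM, CD44 and EGFR, while SPARC was at 0 in 4 libraries. Their sum was 8896 to 9981 CPM in WT and 7159 to 8215 CPM in knockdown libraries. Of the 8, 4 were higher and 4 lower in untreated knockdown cells, and 5 were higher and 3 lower in irradiated ones. Mean LGALS1 was 4197 CPM untreated and 4456 irradiated in WT, and 1868 and 1806 CPM in the knockdown. CD44 was higher in the knockdown, by 0.71 untreated and 0.58 irradiated on the log2 scale (adjusted p = 0.00349 and 0.0202). AXL, a receptor tyrosine kinase on that list, was lower in irradiated knockdown cells (-1.03, adjusted p = 0.00136). ESR1 and FOXA1 were listed in none, and the leukocyte list summed to at most 7.68 CPM. COL1A2, from the fibroblast list, differed between knockdown and WT by -5.82 on the log2 scale when untreated (adjusted p = 0.00485) and by -4.09 after irradiation (adjusted p = 0.0370). Of the 3 genes of that list tested, 2 were lower and 1 was higher in the knockdown, in both treatments. The higher one was COL1A1, by 0.39 untreated and 2.56 irradiated, and it was not called (adjusted p = 0.874 and 0.290). All 4 genes of that list were in the tables, its sum was 31.8 to 79.5 CPM in WT and 7.37 to 20.4 CPM in knockdown libraries, and DCN was at 0 in 7 libraries. The luminal list, with 6 of 8 genes in the tables, summed to 2114 to 2554 CPM in WT and 1305 to 1707 CPM in knockdown libraries. Of its 5 genes tested, 3 were higher and 2 lower in untreated knockdown cells, and 1 was higher and 4 lower in irradiated ones. The part of these genes in the results below was not tested.

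Per kilobase of annotated exon, MT2A was the most abundant member, at 859 CPM per kb as a mean over the 8 libraries. MT1E followed at 232 CPM per kb, then MT1X at 15.8, MT1F at 14.2, MTF1 at 3.03 and MT1G at 0.101. The libraries were built from 3′ ends, so a count need not grow with gene length. MT2A exceeded MT1E in every library, whereas MT1X and MT1F, neighbours in this order, overlapped over libraries. On this scale MT1X was above MT1F in all 4 WT libraries and below it in 3 of the 4 knockdown libraries, so the order of the means does not hold in each genotype.

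The comparison of ATM knockdown with WT carried the largest log2 difference of each tested member except MT1X. MT1E was higher in the knockdown in both treatments, MT2A and MT1F passed the test in untreated cells, and MT1X and MTF1 passed in neither. Among the 5 members tested, 3 were called higher in untreated knockdown cells, where 9.94% of the 12456 genes tested were called, 4.83% of them as higher. After irradiation 1 of 5 was called, against 5.1% of all genes and 2.18% called higher. The median log2 difference of the 5 was 0.98 untreated and 0.67 irradiated, beside medians of -0.0112 and -0.000298 over all genes tested. Each contrast below comes from 1 edgeR quasi-likelihood fit of all 8 libraries, with p-values adjusted by Benjamini-Hochberg over all genes tested.

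**Figure D1:**
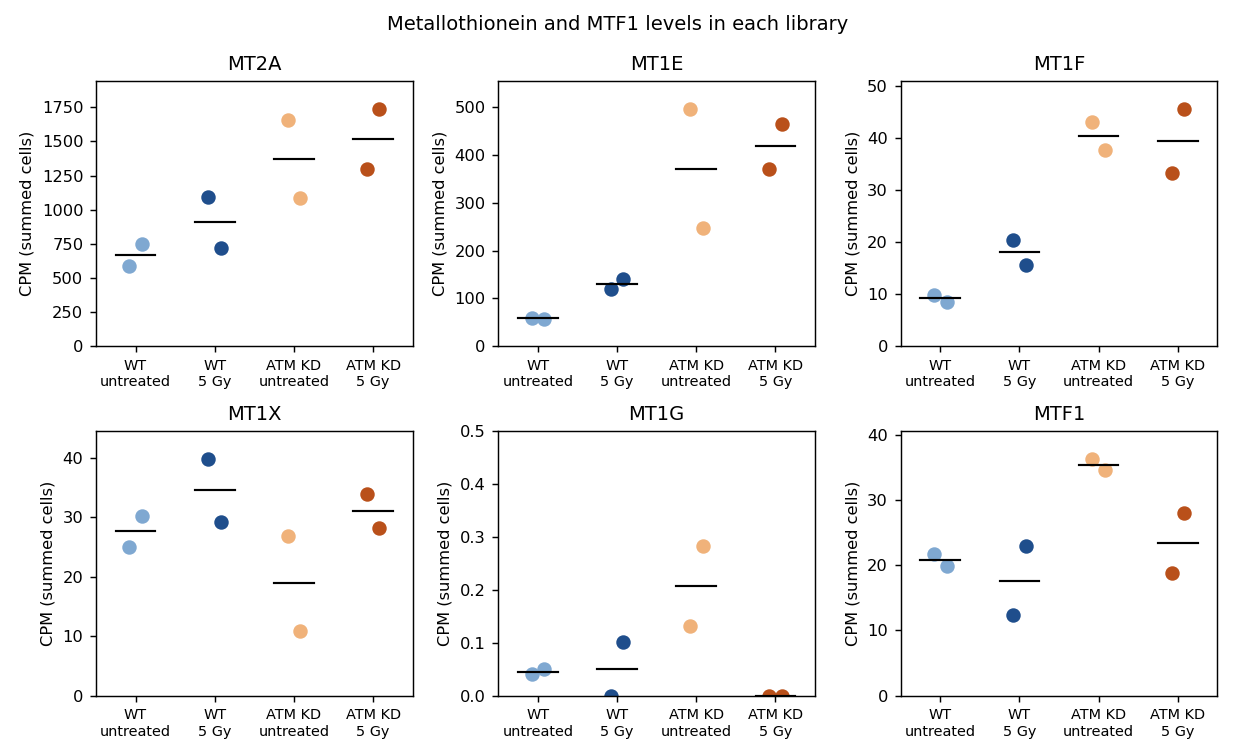
Each panel plots CPM over the summed cells (linear axis from 0) for 1 gene, with 1 point per library, 2 libraries per group, and a bar at the group mean. MT1E and MT1F lie higher in all 4 knockdown libraries than in all 4 WT libraries, MT2A nearly so, and MT1X and MTF1 overlap between genotypes.

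MT1E, one of the MT1 isoforms, showed the widest gap between genotypes. It was at 58.5 and 57.3 CPM in untreated WT and at 496 and 246 CPM in untreated knockdown libraries. In irradiated cells it was at 119 and 141 CPM in WT and at 371 and 465 CPM in the knockdown. All 4 knockdown libraries lay above all 4 WT libraries, which was so for 10.3% of the genes tested. The means were 57.9 ± 0.836 against 371 ± 176 CPM untreated (SD, n = 2 libraries each), a log2 difference of 2.63 ± 0.266 (SE) with adjusted p = 2.72e-05 in edgeR. Irradiated, the log2 difference was 1.62 ± 0.257 with adjusted p = 0.002 in edgeR. The 2 untreated knockdown libraries differed widely from each other, and without library 1 of that group the untreated difference was 2.02 on the log2 scale.

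MT1F, a less abundant isoform of the same cluster, was at 9.89 and 8.56 CPM in untreated WT and at 43.0 and 37.7 CPM in untreated knockdown libraries. In irradiated cells it was at 20.5 and 15.6 CPM in WT and at 33.4 and 45.5 CPM in the knockdown. As with MT1E, every knockdown library was above every WT library, which was so for 10.3% of the genes tested. The untreated log2 difference was 2.07 ± 0.352 (SE) with adjusted p = 0.00167 in edgeR. The irradiated one was 1.06 ± 0.343 with adjusted p = 0.0949 in edgeR, and it passed only under the DESeq2 Wald test among the alternatives run, with adjusted p = 0.0463.

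MT2A, the main human metallothionein in most tissues, was at 590 and 748 CPM in untreated WT and at 1655 and 1083 CPM in untreated knockdown libraries. In irradiated cells it was at 1096 and 717 CPM in WT and at 1299 and 1735 CPM in the knockdown. Within each treatment both knockdown libraries lay above both WT libraries, as 27.5% of genes did untreated and 29.6% irradiated, but irradiated WT library 1 exceeded untreated knockdown library 2. The untreated log2 difference was 0.98 ± 0.225 (SE) with adjusted p = 0.0127 in edgeR. It rested on untreated knockdown library 1, without which it was 0.63 with adjusted p = 0.0643, and under the DESeq2 Wald test adjusted p was 0.0640. In irradiated cells the log2 difference was 0.67 ± 0.224 with adjusted p = 0.107 in edgeR, and it passed the threshold under 10 of 19 alternatives, all with the knockdown higher. It was smaller without irradiated WT library 2 (0.39, adjusted p = 0.489) and without irradiated knockdown library 2 (0.43, adjusted p = 0.441), and larger without irradiated WT library 1 (1.03, adjusted p = 0.00824).

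MT1X, the isoform nearest the far end of the cluster, did not follow MT1E. It was at 25.02 and 30.3 CPM in untreated WT, 39.8 and 29.3 in irradiated WT, 26.95 and 10.8 in untreated knockdown and 33.9 and 28.2 in irradiated knockdown libraries. The untreated knockdown libraries lay below both irradiated groups, and every other pair of groups overlapped. The log2 difference between genotypes was -0.60 ± 0.405 (SE) untreated and -0.23 ± 0.403 irradiated, with adjusted p = 0.391 and 0.836 in edgeR. Without untreated knockdown library 1 the untreated value was -1.42, and MT1X was then called lower (adjusted p = 0.0480).

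MT1G, a further MT1 isoform, was hardly counted. It had 1 and 1 counts in untreated WT, 0 and 2 in irradiated WT, 2 and 5 in untreated knockdown and 0 and 0 in irradiated knockdown libraries. All but 1 of these are at or under 3 counts, the limit that a count of 0 allows, so no ratio is given. At this depth no difference in MT1G was detectable.

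MTF1, the zinc-sensing activator, was at 21.8 and 19.9 CPM in untreated WT, 12.3 and 22.9 in irradiated WT, 36.2 and 34.5 in untreated knockdown and 18.7 and 28.0 in irradiated knockdown libraries. The untreated knockdown libraries were the highest pair, and the irradiated groups overlapped. Both untreated knockdown libraries lay above both untreated WT libraries for 27.5% of the genes tested. The log2 difference between genotypes was 0.71 ± 0.377 (SE) untreated and 0.34 ± 0.378 irradiated, with adjusted p = 0.273 and 0.701 in edgeR. Neither passed the test, and these errors do not exclude a log2 difference of MTF1 as large as that of MT2A.

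**Figure D2:**
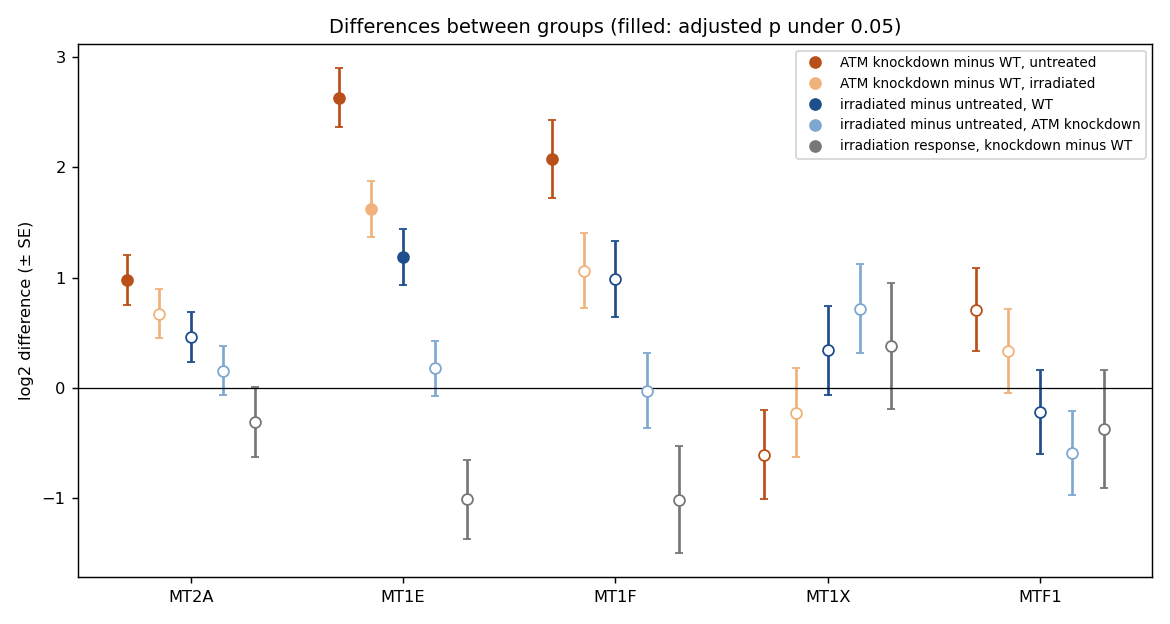
Points give the log2 difference (vertical axis) of the 5 tested genes in each of 5 contrasts, bars give ± 1 SE, and filled points have adjusted p under 0.05 in the edgeR fit. MT1E is filled in 3 contrasts, MT2A and MT1F only in untreated knockdown against WT, and MT1X and MTF1 in none.

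The make-up of the metallothionein pool was compared between genotypes as a description, with no test and no share of all genes beside it. The 5 genes together came to 684 and 844 CPM in untreated WT, 1275 and 903 in irradiated WT, 2221 and 1378 in untreated knockdown and 1738 and 2274 in irradiated knockdown libraries. MT2A held 79.4% to 88.6% of this sum in the WT libraries and 74.5% to 78.6% in the knockdown libraries, so the ranges did not overlap. MT1E held 8.55% and 6.79% in untreated WT, 9.32% and 15.6% in irradiated WT, 22.3% and 17.9% in untreated knockdown and 21.4% and 20.5% in irradiated knockdown libraries. Every knockdown library had the larger MT1E share. The ratio of MT1E to MT2A was 0.0766 to 0.196 in WT and 0.228 to 0.2996 in the knockdown, with irradiated WT library 2 the highest of the WT libraries. MT1X had the smaller share in the knockdown, 0.785% to 1.95% of the sum against 3.12% to 3.66% in WT, while its own level was not called between genotypes. These shares add to 100% within a library, so they are not independent of each other or of the MT1E levels above.

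In WT cells irradiation came with more MT1E. Both irradiated WT libraries (119 and 141 CPM) lay above both untreated ones (58.5 and 57.3 CPM), as 20.9% of genes did, and the log2 difference was 1.19 ± 0.256 (SE) with adjusted p = 0.0327 in edgeR. MT1E was the 1 member of 5 called, where 1.65% of all genes were called and 0.907% were called higher. The call was lost in 4 of 19 alternatives: the WT groups fitted alone (adjusted p = 0.0637), limma on the mean CPM per cell (0.0556), without irradiated WT library 2 (0.0881), and without cells of more than 2 times their library's median count. In the last, which leaves out 3 to 14 cells of each WT library, the difference was 0.66 with adjusted p = 0.265. MT1F was at 18.0 ± 3.46 CPM irradiated and 9.23 ± 0.943 untreated (SD, n = 2 each), also without overlap, with a log2 difference of 0.99 ± 0.346 and adjusted p = 0.187 in edgeR. MT2A overlapped, with 0.46 ± 0.224 and adjusted p = 0.380, as did MT1X with 0.34 ± 0.403 and 0.781, and MTF1 with -0.22 ± 0.378 and 0.866.

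In ATM knockdown cells irradiation gave none of the 5 members a call, where 0.225% of all genes were called. MT1E was at 371 ± 176 CPM untreated and 418 ± 66.3 CPM irradiated (SD, n = 2 each), a log2 difference of 0.18 ± 0.250 with adjusted p = 0.913 in edgeR. MT2A differed by 0.15 ± 0.223 (adjusted p = 0.914) and MT1F by -0.02 ± 0.336 (adjusted p = 1.0), and all 3 changed sign under at least 3 of the alternatives run. MT1X was at 18.9 ± 11.4 CPM untreated and 31.0 ± 4.00 irradiated, higher in both irradiated libraries as 20.4% of genes were, with 0.72 ± 0.406 and adjusted p = 0.639. MTF1 differed by -0.59 ± 0.377 with adjusted p = 0.680.

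The difference between these irradiation responses was tested directly. No member was called, where 0.185% of all genes were called. The response of MT1E in the knockdown minus that in WT was -1.01 ± 0.356 (SE) with adjusted p = 0.372 in edgeR, that of MT1F -1.01 ± 0.481 with 0.533, and that of MT2A -0.31 ± 0.316 with 0.822. MT1E passed in this contrast without untreated knockdown library 2 (-1.44, adjusted p = 0.0121) and with no filter on low counts (adjusted p = 0.0108). Without untreated knockdown library 1 it was -0.41 with adjusted p = 0.728, and with limma the MT1F value was -0.14 with adjusted p = 0.966. Both irradiation contrasts enter this difference, and each shares its untreated libraries with a genotype contrast above, so the 5 contrasts are not independent.

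MT1A, another gene of the cluster, ran at 2.103 and 4.81 CPM in untreated WT, 8.26 and 7.52 in irradiated WT, 1.90 and 3.85 in untreated knockdown and 2.07 and 0.206 in irradiated knockdown libraries. It did not share the higher knockdown level of MT1E and passed no test, with adjusted p = 0.890 between untreated genotypes. In irradiated cells both knockdown libraries (41 and 4 counts) were below both WT libraries (77 and 148 counts). The share of genes in that order was not counted, while 29.6% had both knockdown libraries above both WT ones. The log2 difference of MT1A was -2.87 ± 1.150 (SE) with adjusted p = 0.185 in edgeR. Its response to irradiation differed between genotypes by -2.54 ± 1.543 with adjusted p = 0.637. MT1M was listed in 2 tables, MT1B in 1, and MT1H, MT3 and MT4 in none.

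The genes that flank the cluster on 16q13 were taken as a further comparison. Of 10 such genes 8 were tested, and 0 were called in any of the 5 contrasts. Of all genes tested, 9.94% were called between untreated and 5.1% between irradiated genotypes. The shares were 1.65% for irradiation in WT, 0.225% for irradiation in the knockdown and 0.185% for the difference in response. Among 8 genes, 0 calls do not set them apart from these shares. BBS2, a gene of the ciliary BBSome on one side, differed by 0.11 ± 0.452 (SE) on the log2 scale between untreated genotypes, with adjusted p = 0.916 in edgeR. NUP93, a nuclear pore gene on the other side, differed by 0.40 ± 0.257 with adjusted p = 0.365. The 8 flanking genes had a median log2 difference of 0.09 between untreated genotypes, beside -0.01 over all genes.

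**Figure D3:**
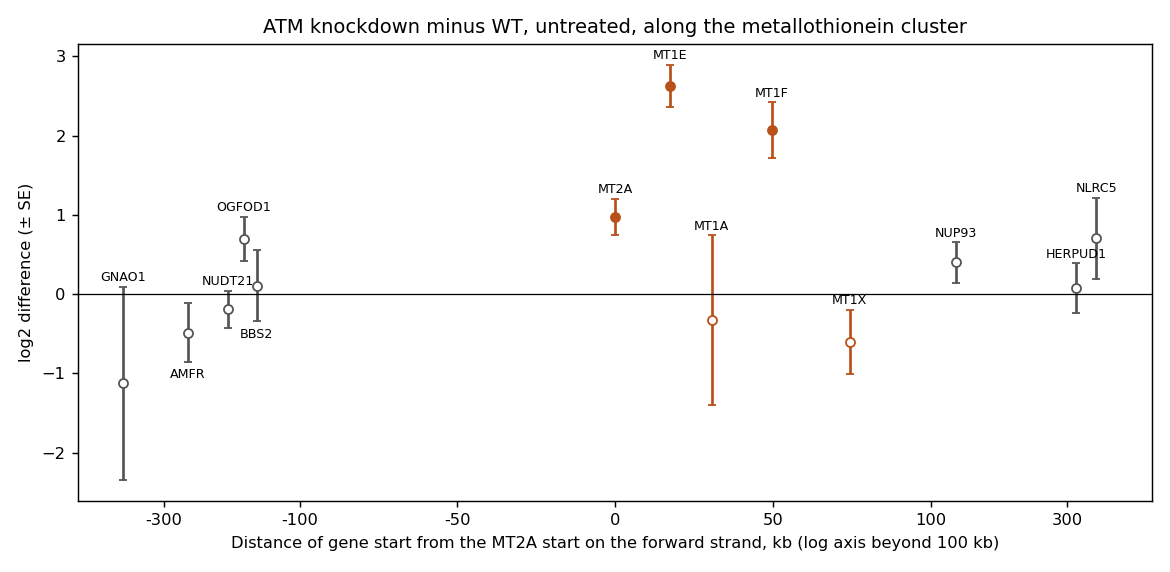
The log2 difference between untreated ATM knockdown and WT (vertical axis, ± SE) is plotted against the distance of each gene's start from that of MT2A in kb (log scale beyond 100 kb). Metallothioneins are orange, flanking genes grey, and filled points have adjusted p under 0.05. MT1E, MT1F and MT2A are filled, while MT1A and MT1X between and beside them and all 8 flanking genes are open.

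The genes that move zinc and copper were counted against the same shares of all genes called, 9.94% between untreated and 5.1% between irradiated genotypes. Of 10 zinc exporters and vesicle loaders of the SLC30 family 8 were tested and 0 were called in any contrast. SLC30A1, the plasma membrane zinc exporter and itself an MTF1 target, was at 44.2 and 33.0 CPM in untreated WT and 78.3 and 61.7 in untreated knockdown libraries. Its untreated log2 difference was 0.81 ± 0.273 (SE) with adjusted p = 0.0778 in edgeR, and irradiated it was -0.17 ± 0.273 with 0.805. Both untreated knockdown libraries thus lay above both WT ones, as 27.5% of genes did, but the test was not passed. Of 14 zinc importers of the SLC39 family 10 were tested. SLC39A10 was lower in the knockdown, at 61.2 and 39.8 CPM against 256 and 123 in untreated WT, with log2 differences of -1.96 ± 0.316 untreated (adjusted p = 0.00112) and -1.72 ± 0.315 irradiated (adjusted p = 0.00518). SLC39A13 was higher in irradiated knockdown cells by 0.89 ± 0.196 (adjusted p = 0.0155). All 9 copper handling genes were tested and 0 were called, among them the copper importer SLC31A1, with 0.58 ± 0.197 untreated and adjusted p = 0.0769. Among 8 SLC30 genes or 9 copper handling genes, 0 calls do not set these lists apart from the shares of all genes.

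Of 12 oxidative and heat stress genes that metals also induce, 9 were tested. Between untreated genotypes 3 were higher in the knockdown and 1 was lower, where 9.94% of all genes were called and 4.83% were called higher. HMOX1, haem oxygenase, was at 10.7 and 6.71 CPM in untreated WT, 12.1 and 4.17 in irradiated WT, 70.3 and 53.9 in untreated knockdown and 60.6 and 62.7 in irradiated knockdown libraries. It was higher in all 4 knockdown libraries than in all 4 WT libraries, as 10.3% of the genes tested were. The log2 difference was 2.78 ± 0.437 (SE) untreated and 2.88 ± 0.446 irradiated, with adjusted p = 0.000947 and 0.00174 in edgeR. The cystine importer SLC7A11 (0.96, adjusted p = 0.00899) and thioredoxin reductase TXNRD1 (0.59, adjusted p = 0.00506) were higher in untreated knockdown cells, and the chaperone HSPH1 was lower (-1.46, adjusted p = 0.000124). In irradiated cells NQO1 was lower in the knockdown (-0.57, adjusted p = 0.0271). HSPH1 fell with irradiation in WT (-1.25, adjusted p = 0.00314), and its response differed between genotypes by 1.47 (adjusted p = 0.0336).

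Of 10 genes of the glucocorticoid receptor and its targets 9 were tested. At most 2 were called in 1 contrast, where 9.94% of all genes were called between untreated and 5.1% between irradiated genotypes, 1.65% for irradiation in WT and 0.225% in the knockdown. NR3C1, the receptor itself, was lower in the knockdown by 0.67 ± 0.201 (SE) untreated and 0.79 ± 0.201 irradiated, given here as sizes on the log2 scale, with adjusted p = 0.0459 and 0.0344 in edgeR. CEBPD was lower in irradiated knockdown cells, both against irradiated WT (-1.61, adjusted p = 0.00518) and against untreated knockdown (-1.82, adjusted p = 0.0121). ERRFI1 was lower in irradiated than in untreated WT (-1.43, adjusted p = 0.0121). TSC22D3, a direct receptor target, was not called between genotypes, with adjusted p = 0.168 untreated.

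To compare single cells at equal depth, each kept cell was thinned at random to 69000 counts, which left 330 cells and dropped 33 shallower ones (0 to 9 per library). At that depth MT2A was counted in every cell but 1, a cell of untreated knockdown library 2. Its median over cells was 420 and 551 CPM in untreated WT, 623 and 478 in irradiated WT, 913 and 797 in untreated knockdown and 1029 and 1080 in irradiated knockdown libraries. All 4 knockdown medians exceeded all 4 WT medians. How many genes show that order in cell medians was not counted, while in summed counts 10.3% of the genes tested did. MT2A was not among those, since its summed level in irradiated WT library 1 (1096 CPM) exceeded that in untreated knockdown library 2 (1083 CPM).

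MT1E was counted in 76.7% and 67.4% of cells in untreated WT, 82.1% and 84.8% in irradiated WT, 100% and 87.5% in untreated knockdown and 95.3% and 100% in irradiated knockdown libraries. For untreated WT library 2 the exact binomial 95% interval was 52.0% to 80.5%, which covers counting error only. Without thinning the shares were 81.2% to 93.8% in WT and 90.9% to 100% in the knockdown, so the genotypes overlapped there and not in this thinning. The gap in this thinning was narrow, from 84.8% to 87.5%. When the thinning was repeated with another random seed, MT2A and MT1E were both counted in 34 of 39 cells of irradiated WT library 1. In untreated knockdown library 2 both were counted in 34 of 40 cells. In the first thinning the median of MT1E over cells was 28.99 and 28.99 CPM in untreated WT and 58.0 and 116 in irradiated WT libraries. It was 145 and 152 in untreated knockdown and 217 and 239 in irradiated knockdown libraries. A median of 28.99 CPM is 2 counts at this depth, so the WT medians are coarse.

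**Figure D4:**
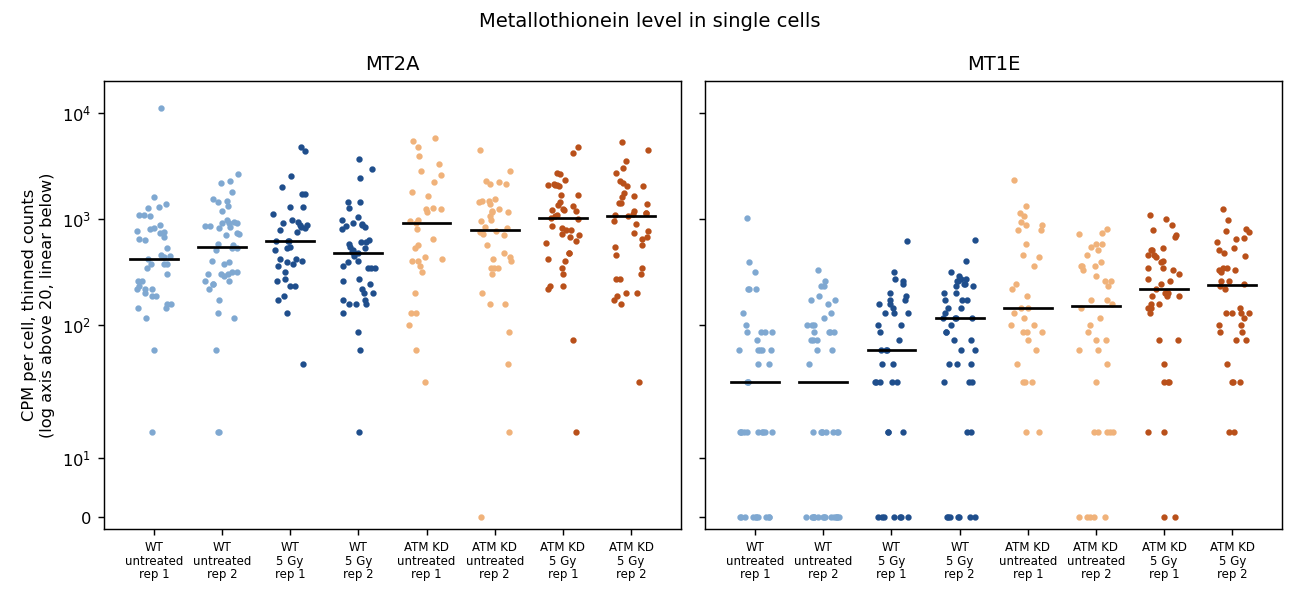
Each dot is 1 cell thinned to 69000 counts, plotted by library, with CPM per cell on an axis that is logarithmic above 20 and linear below, and bars at the library medians. MT2A is counted in all cells but 1, while MT1E has cells at 0 in all 4 WT libraries and in 2 of the 4 knockdown libraries.

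The rarer members were found in fewer cells. MT1F was counted in 25.6% to 39.1% of cells of the WT libraries and 42.5% to 58.1% of cells of the knockdown libraries at equal depth. Unthinned, these ranges were 37.5% to 52.1% and 46.3% to 72.1% and overlapped. They also overlapped when the thinning was repeated with another random seed, with 32.5% in untreated knockdown library 2 and 35.9% in irradiated WT library 1. MT1X was counted in 39.1% to 78.3% of WT and 42.5% to 78.8% of knockdown cells, with no order by genotype. MTF1 was counted in 30.8% to 41.3% of WT and 32.6% to 57.5% of knockdown cells. MT1G was counted in 1 cell of untreated knockdown library 2 and in 0 cells of the other 7 libraries, which allows a share of up to 6.52% to 9.09% of cells with a count at that depth. Unthinned, it was counted in 1 cell in each of 3 WT libraries, in 2 cells in each untreated knockdown library and in 0 cells of the other 3 libraries.

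Cells of 1 library differed widely in metallothionein level. For the sum of the 5 genes, the ratio of the 90th to the 10th percentile over cells was 6.79 and 6.88 in untreated WT, 6.48 and 8.62 in irradiated WT, 19.9 and 11.8 in untreated knockdown and 6.05 and 9.14 in irradiated knockdown libraries. The untreated knockdown libraries were the most spread and the irradiated knockdown libraries were not. How many other genes show that order was not counted. The untreated knockdown libraries also had the lowest median number of genes per cell, 5874 and 6053, against 6400.5 to 7537 in the others. Their mitochondrial share of counts was the largest, 11.1% and 11.96%, against 9.36% to 10.6%. The part of these in the spread was not tested. A single cell of untreated WT library 1 reached 11087 CPM of MT2A, where the library's 90th percentile was 1241 CPM. In the summed counts, the cell with the most metallothionein counts held 10.4% to 17.5% of them in 7 libraries and 35.4% in irradiated knockdown library 2, where it also held 11.6% of all counts. Without that cell in each library, a choice made after seeing the data, MT1E stayed higher in irradiated knockdown cells (1.48, adjusted p = 0.00323) and in untreated ones (2.67, adjusted p = 2.05e-05).

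MT2A and MT1E were positively correlated from cell to cell in every library. Spearman's rho across thinned cells was 0.378 and 0.340 in untreated WT, 0.473 and 0.451 in irradiated WT, 0.833 and 0.586 in untreated knockdown and 0.544 and 0.615 in irradiated knockdown libraries (33 to 46 cells each). The knockdown values were all above the WT values at this depth, but not at 20000 counts per cell, where irradiated knockdown library 1 (0.416) was below irradiated WT library 1 (0.457). MT1E was at few counts in most WT cells, and the part of this in the order was not tested. Other pairs were weaker. MT2A with MT1X had a median rho of 0.262 over libraries (0.142 to 0.565), and MT2A with MT1F one of 0.0520 (-0.201 to 0.556). The sum of the 5 genes had a median rho of 0.0711 with MTF1 (-0.301 to 0.188), 0.0539 with SLC30A1 and -0.00765 with HMOX1. MTF1, SLC30A1 and HMOX1 were at few counts per cell, where weak values of rho say little.

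**Figure D5:**
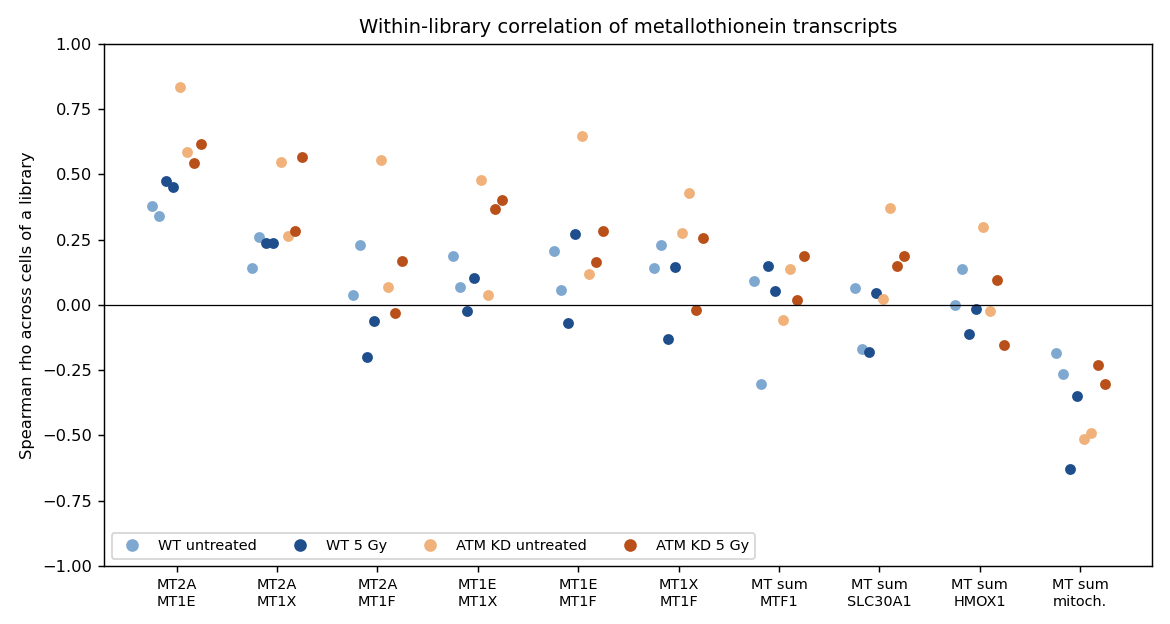
Each point is Spearman's rho across the thinned cells of 1 library (vertical axis, -1 to 1) for a pair of genes named on the horizontal axis, coloured by group. MT sum is the sum of the 5 metallothioneins and mitoch. the sum of the 13 mitochondrial genes. MT2A with MT1E lies between 0.340 and 0.833 in all 8 libraries, and the sum against mitochondrial genes lies below 0 in all 8.

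Among 5328 genes counted in at least 50% of thinned cells, likeness to the metallothionein sum was measured as the mean over 8 libraries of the rho within a library. The highest values belonged to HMGA1 (0.42), an architectural chromatin protein, POLR2L (0.39), a small RNA polymerase subunit, and RPL36 (0.38), a ribosomal protein. RPL24 (0.36), COX7C (0.34), FOSL1 (0.33), RPLP2 (0.32) and RPL10 (0.32) followed. For all ranked genes the median was 0.0469 and the 95th percentile 0.179. At the other end were the mitochondrially encoded MT-CO2 (-0.44) and MT-CYB (-0.34) and the cytochrome P450 gene CYP1B1 (-0.32). The sum of 13 mitochondrial genes had a median rho of -0.326 with the metallothionein sum, from -0.630 to -0.185. Mitochondrial transcripts took 9.36% to 10.3% of counts in WT and 10.2% to 11.96% in knockdown libraries, and their part in these values was not tested. The points share a library and a fixed depth, and a cell's counts sum to the same total.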

How the data were processed

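Single cells picked by mouth pipette were amplified with a modified Smart-seq2 protocol and made into 3′ libraries, per the labels' protocols. The authors deposited raw counts per gene and cell, 1 table per library, for coding genes. Reads were trimmed with Trimmomatic 0.36, aligned to hg38 with HISAT2 2.1.0 and counted with HTSeq 0.9.1, per the submitters' processing notes. Strand use, molecular identifiers and the handling of multi-mapped reads are not given in the sources used here, so intervals and limits cover counting error only. A wrong split of reads between near-identical metallothioneins would move counts from one member to another.

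Cells with at least 1000 genes and 5000 counts were kept, and no 2 kept cells had identical counts. No doublet caller was run, since cells were picked singly. Counts were summed per library and tested with edgeR 4.0.16 in R 4.3.3 (filterByExpr, TMM scaling, quasi-likelihood F test, 4 groups in 1 fit, Benjamini-Hochberg adjustment over 12456 genes, threshold 0.05). SE is the log2 difference divided by the square root of F. CPM values use library totals without TMM. Counts were simulated for the WT irradiation contrast over 12456 genes. There 56% of genes changed 2-fold and 100% of those changed 4-fold were recovered, with 7 false calls. Only better counted genes, at a mean level of 5 or more in log2 CPM, were changed in that simulation. MT1X (4.82), MT1F (4.74) and MTF1 (4.60) lay below this level, so these rates do not cover them. Alternatives used other scaling and filters, DESeq2 1.42.0, limma 3.58.1 on mean CPM per cell with log2(CPM + 1), other cell filters and each library left out.

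The members and gene lists were chosen with earlier results of these data known. Named were the 6 members, ATM, every list gene past 0.05 in any contrast, SLC30A1, SLC31A1, HMOX1, TSC22D3, BBS2 and NUP93 whatever their p, and the 8 highest and 3 lowest genes by likeness. The other marker lists gave calls between genotypes for CD44 (higher), LGALS1, KRT8 and KRT18 (lower), AXL (lower, irradiated) and EPCAM (higher, untreated). The embryonic kidney list had 0 of its 4 genes in any table. Gene positions and identifiers come from GENCODE 29 on GRCh38, the build named for the files, and promoter letters from RefSeq on GRCh38.p14.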

Additional observations from a re-analysis of the deposited data

How the results depend on the processing

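Across 25 differences of a member in a contrast, 455 values under alternatives were computed: 412 kept direction and side of the threshold, 6 lost a call, 15 gained one and 22 changed sign. MT1E stayed called between genotypes in both treatments under all 19 alternatives each, and MT1F untreated under all 18 that tested it. The member count for WT irradiation, 1 in the report, was 2 with no filter and 0 with limma, with the compared groups alone and without the deep cells, and 0 to 1 with a library left out. For irradiated genotypes, 1 in the report, it was 2 with no filter, an average log2 CPM of at least 5, DESeq2's test, limma or no deep cells, and 1 to 2 with a library left out. For the response it was 1 with no filter and 0 to 1 with a library left out. Signs changed without deep cells for MT1X in WT irradiation (-0.13) and between irradiated genotypes (0.15), and in knockdown irradiation for MT2A (-0.0653), MT1E (-0.13) and MT1F (0.47). Limma gave 0.36 for MT1F in knockdown irradiation and 0.31 for the MTF1 response. Leaving out the top metallothionein cell, chosen after seeing the data, gave -0.0356 for MT1E and 0.0783 for MT1F in knockdown irradiation. With a library left out, signs changed for MTF1 in WT irradiation (-0.72 to 0.14), between irradiated genotypes (-0.0229 to 0.84) and in the response (-0.73 to 0.13), for MT2A in knockdown irradiation (-0.14 to 0.50) and the response (-0.59 to 0.0492), for MT1E (-0.26 to 0.77) and MT1F (-0.28 to 0.19) in knockdown irradiation, and for MT1X between irradiated genotypes (-0.44 to 0.0266) and in the response (-0.15 to 1.196). The cause was not tested. Where 1 library stood for a group, its spread was taken from the other groups. At 20000 counts per cell, MT1E was found in a mean of 59.2% of WT and 82.9% of knockdown cells, against 77.7% and 95.7%. Of the 8 genes most like the sum, 3 stayed among the top 8 at 20000 counts, 4 with another random seed and 4 to 7 with a library left out, so single names there are unstable. Genes called over the whole table ranged over the alternatives from 33 (compared groups alone) to 569 (DESeq2's test) for WT irradiation, against 205, from 28 to 236 (no filter) for knockdown irradiation, against 28, from 22 to 195 (no filter) for the response, against 23, from 718 (compared groups alone) to 1840 (DESeq2's test) between untreated genotypes, against 1238, and from 308 (without irradiated knockdown library 2) to 1088 (DESeq2's test) between irradiated ones, against 635. Other scalings moved the median of all genes by at most 0.0649 on the log2 scale. No paired analysis was possible because the labels give no replicate numbers, and those used here follow accession order and only name libraries. With 2 libraries a group, no difference of MT1G, with at most 5 counts in a library, was detectable at this depth.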
